A study of Mus musculus with 6 samples.

Results

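The G1 cell cycle exit genes are 10 mouse genes that govern the arrest of erythroid cells once GATA1 is active: Myc, the D cyclin genes Ccnd2 and Ccnd3, the kinase genes Cdk4 and Cdk6, the inhibitor genes Cdkn1b and Cdkn2c, the pocket protein gene Rb1, and E2f2 and E2f4. They were taken by name, by their role in this arrest and not by their change, though earlier results of these data were known. Each of the 10 matched 1 of the 48709 identifiers of the count table. All 10 were among the 12722 genes with enough counts to be tested.

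RNA was sequenced from G1E-ER4, an immature mouse red cell line in which tamoxifen turns on an introduced GATA1-estradiol receptor fusion and so starts maturation. The CTRL group received an alanine peptide coupled to Tat and the CHD4-APR group a peptide (YWLLAGII-Tat) of the aggregation-prone region in the C-terminus of the remodeler CHD4, and each group had 3 libraries. Cells had either peptide at 10 μM for 2 h and then tamoxifen for a further 28 h, at 100 nM by the growth protocol and 100 μM by the series text. All 6 libraries come from this single line and all received tamoxifen, so arrest itself, which would need cells without tamoxifen, was not compared here, and nothing in the labels says that the 3 libraries of a group came from separate cultures. The total counts were 41687482 to 49784177 per library, and 38.3% of the genes tested passed the threshold between the groups, a false discovery rate (FDR) under 0.05 by edgeR's quasi-likelihood test. Of 11 erythroid marker genes all 11 were tested, and their summed level was 37949 to 39954 counts scaled to a common library size (CPM) in CTRL and 33654 to 35405 CPM in CHD4-APR libraries. Their means over the 6 libraries ran from 25.9 to 14459 CPM, so the sum mostly follows the most abundant markers. Of the 19 markers of megakaryocytes, macrophages and granulocytes, mast cells and lymphocytes, 15 had a mean under 1 CPM, and 7, among them Vwf, Mpo, Mcpt8 and Cd3e, had no count. The highest mean was 34.7 CPM for a megakaryocyte marker and 4.33 CPM for a macrophage or granulocyte marker, against 25.9 CPM for the lowest erythroid marker. The summed megakaryocyte markers were at 46.7 to 48.8 CPM in CTRL and 39.8 to 45.7 CPM in CHD4-APR libraries, and those of macrophages and granulocytes at 8.36 to 9.79 and 6.76 to 8.23 CPM. Their part in the results was not tested, and in bulk RNA fewer cells of a type and less RNA per cell cannot be told apart.

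In G1, D cyclins bind CDK4 or CDK6 and the active kinases phosphorylate RB, which then releases E2F factors to switch on genes of DNA synthesis. INK4 proteins such as CDKN2C bind the kinases themselves, CIP/KIP proteins such as CDKN1B bind cyclin-CDK complexes, and MYC drives growth and entry into S phase. In erythroid cells, activated GATA1 lowers Myc, kinase activity falls, and the cells leave the cycle in G1 as they mature.

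The promoters of 4 members are shown because their genes passed the test and carried the letters of a searched motif upstream of a start: Ccnd3 (at the second of its 2 starts) and Cdk4, which fell, and Cdk6 and Cdkn1b, which rose. Each run is the 250 bases before the RefSeq start in GRCm38.p6, read 5′ to 3′, with the E-box CACGTG, the site that MYC and MAX bind, or the CCAAT box in capitals.
Ccnd3 (chr17:47593217-47593466, + strand): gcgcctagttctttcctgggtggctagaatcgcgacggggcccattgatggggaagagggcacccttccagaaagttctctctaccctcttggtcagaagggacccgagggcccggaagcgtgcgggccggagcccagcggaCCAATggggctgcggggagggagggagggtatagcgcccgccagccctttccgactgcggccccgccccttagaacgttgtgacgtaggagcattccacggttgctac
Cdk4 (chr10:127063285-127063534, + strand): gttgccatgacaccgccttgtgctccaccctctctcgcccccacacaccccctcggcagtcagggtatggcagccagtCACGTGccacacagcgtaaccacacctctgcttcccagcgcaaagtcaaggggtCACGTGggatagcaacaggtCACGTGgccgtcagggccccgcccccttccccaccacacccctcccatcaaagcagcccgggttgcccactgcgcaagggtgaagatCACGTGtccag
Cdk6 (chr5:3343643-3343892, + strand): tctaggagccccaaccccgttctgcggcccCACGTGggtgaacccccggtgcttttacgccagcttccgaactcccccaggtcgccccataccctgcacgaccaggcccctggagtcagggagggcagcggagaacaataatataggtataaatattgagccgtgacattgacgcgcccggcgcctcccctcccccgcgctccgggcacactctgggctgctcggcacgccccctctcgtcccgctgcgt
Cdkn1b (chr6:134920151-134920400, + strand): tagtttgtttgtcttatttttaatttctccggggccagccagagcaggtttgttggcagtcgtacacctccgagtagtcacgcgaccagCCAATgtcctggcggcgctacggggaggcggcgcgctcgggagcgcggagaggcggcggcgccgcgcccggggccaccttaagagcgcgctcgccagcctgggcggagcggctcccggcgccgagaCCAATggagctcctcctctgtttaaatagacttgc
The Cdk4 window held 4 copies of CACGTG, with 166, 112, 92 and 5 bases between each and the start. Of 32851 promoter windows of the same length, 6.02% held CACGTG at all and 7 windows held 4 or more copies. The Cdk6 window held 1 copy, with 214 bases between it and the start. CCAAT, searched on both strands, was found 2 times upstream of Cdkn1b, with 156 and 30 bases to the start, and 10.1% of all windows held it at least 2 times. The Ccnd3 window held it 1 time, with 103 bases to the start, and the 2 windows of E2f2, which did not pass the test, held it 1 and 3 times, where 33.8% of all windows held it at all. For 6 of the 10 genes a promoter entry was at hand, with 9 entries in all. Neither AGATAA or TGATAA, the letters of a GATA site, nor the E2F letters TTTGGCGC, TTTCCCGC, TTTCGCGC and TTTGCCGC were found in any of the 9 windows on either strand, against 16.6% and 1.86% of all windows. No 2 of the searched motifs had a match at the same place in these windows. A match describes letters only, and binding was not measured here.

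Of the 10 genes, 7 passed the test, where 38.3% of all genes tested did. Myc, Ccnd2, Cdk6, Cdkn1b and Rb1 were higher in CHD4-APR libraries, against 20.4% of all genes, and Ccnd3 and Cdk4 were lower, against 17.8%. Cdkn2c, E2f2 and E2f4 did not pass. None of the 10 changed by 1.5-fold or more, a change that 4.23% of all genes passed along with the FDR threshold. The median of their log2 fold changes was 0.11, against -0.012 over all genes tested. In 8 of the 10 the libraries of the groups did not overlap, as in 49.9% of all genes. With the trend of each library with exonic length and GC content removed, 4 of the 10 passed, where 28.1% of all genes did: Myc, Rb1 and E2f4 as higher and Ccnd3 as lower. Over all genes, 2601 were higher and 2270 lower without this correction, and 1506 and 2074 with it.

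**Figure D1:**
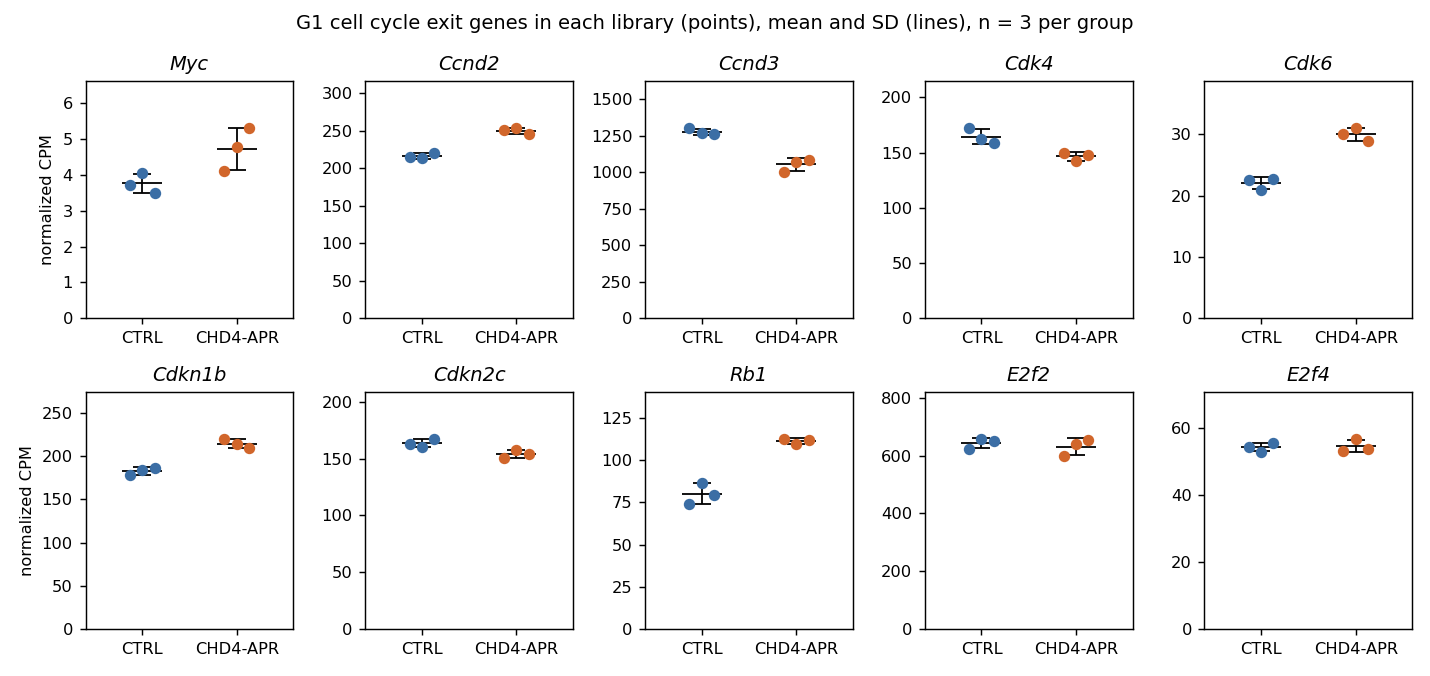
Normalized CPM of each gene in the 3 CTRL and 3 CHD4-APR libraries (points), with the mean and SD (lines) on axes that start at 0. The groups overlap for E2f2 and E2f4 and are apart for the other 8 genes, most widely in fold for Rb1 and Cdk6.

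Myc, on chromosome 15 from 61985391 to 61990374 (GRCm38), encodes the growth-promoting transcription factor that GATA1 represses in these cells. It had 3.73, 4.05 and 3.50 CPM in CTRL replicates 1, 2 and 3, and 4.12, 4.77 and 5.29 CPM in CHD4-APR replicates 1, 2 and 3. The highest CTRL library lay just under the lowest CHD4-APR library. The log2 fold change was 0.33 with a standard error of 0.13 (edgeR FDR 0.0486), and 145 to 250 reads per library stood behind it, the fewest of the 10 genes. The call did not hold when CTRL replicate 1 or 3 or CHD4-APR replicate 2 or 3 was left out, where the log2 fold change was 0.32, 0.28, 0.32 and 0.24, nor under DESeq2 (0.33, FDR 0.0727), limma-voom (0.32, FDR 0.0647) or upper quartile scaling (0.31, FDR 0.0578). After the length and GC correction it was 0.43 (FDR 0.0158 by the same edgeR test).

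The D cyclin genes moved in opposite directions. Ccnd3, on chromosome 17 from 47505051 to 47599691, encodes the D cyclin that sustains the last divisions of maturing erythroblasts. It had 1298, 1265 and 1262 CPM in the CTRL libraries against 1001, 1070 and 1085 CPM in the CHD4-APR libraries, so that every CHD4-APR library was below every CTRL library. Its log2 fold change was -0.28 with a standard error of 0.043 (edgeR FDR 1.32e-04), and it was -0.30 (FDR 7.85e-05 by edgeR) after the length and GC correction. The call held in all 16 alternatives, with log2 fold changes from -0.31 to -0.24. Ccnd2, on chromosome 6 from 127125162 to 127152193, encodes the D cyclin of cells that respond to cytokines. It had 215, 213 and 221 CPM with the CTRL peptide and 251, 253 and 245 CPM with the CHD4-APR peptide, again without overlap. Its log2 fold change was 0.21 with a standard error of 0.041 (edgeR FDR 8.42e-04). After the length and GC correction it was 0.015 (FDR 0.796 by edgeR) and no longer passed.

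The kinase genes also went apart. Cdk4, on chromosome 10 from 127063534 to 127067920, and Cdk6, on chromosome 5 from 3341485 to 3531008, encode the partners of the D cyclins. Cdk4 had 172, 162 and 159 CPM in the CTRL libraries against 150.0, 142 and 148 CPM in the CHD4-APR libraries. All CHD4-APR values were below all CTRL values, and the log2 fold change was -0.16 with a standard error of 0.045 (edgeR FDR 0.00859). Cdk6 had 22.5, 20.9 and 22.7 CPM in the CTRL libraries against 30.1, 30.9 and 28.9 CPM in the CHD4-APR libraries. These groups were well apart, with a log2 fold change of 0.44 with a standard error of 0.062 (edgeR FDR 4.74e-05). Neither passed after the length and GC correction, at -0.074 (FDR 0.169 by edgeR) for Cdk4 and 0.15 (FDR 0.0810 by edgeR) for Cdk6. Cdk6 passed with that correction and a replicate block together, and Cdk4 was also lost without CHD4-APR replicate 2, at -0.14.

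Of the inhibitors, Cdkn1b rose and Cdkn2c did not pass. Cdkn1b, on chromosome 6 from 134920401 to 134925513, encodes p27, which binds cyclin-CDK complexes in cells that leave the cycle. It had 178, 184 and 187 CPM in the CTRL libraries against 219.6, 214 and 209 CPM in the CHD4-APR libraries. The groups did not overlap, and the log2 fold change was 0.23 with a standard error of 0.042 (edgeR FDR 4.99e-04). With length and GC content corrected for it was 0.068 (FDR 0.199 by edgeR). Cdkn2c, on chromosome 4 from 109660876 to 109667189, encodes p18, an INK4 protein that binds CDK4 and CDK6. It had 163, 160.2 and 167 CPM in the CTRL libraries against 151, 157 and 154 CPM in the CHD4-APR libraries. The CHD4-APR libraries were the lower ones, without overlap, but the log2 fold change of -0.086 (standard error 0.042) had an FDR of 0.123 by edgeR and was 0.062 after the length and GC correction.

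Rb1 had the largest fold change of the 10 genes without the length and GC correction, and Myc with it. On chromosome 14 from 73183673 to 73325822, it encodes the pocket protein that holds E2F factors and that erythroblasts need to complete their maturation. It had 74.3, 86.7 and 79.5 CPM in the CTRL libraries against 113, 109.8 and 112 CPM in the CHD4-APR libraries, a gap wider than the spread within either group. The log2 fold change was 0.47 with a standard error of 0.053 (edgeR FDR 6.51e-06). It passed in all 16 alternatives, from 0.23 (FDR 6.19e-04 by edgeR) after the length and GC correction to 0.54.

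The E2F genes differed by less than their spread between the groups. E2f2, on chromosome 4 from 136172394 to 136196057, encodes an activating E2F that is abundant in erythroblasts. It had 624, 657 and 651 CPM in the CTRL libraries against 598, 641 and 654 CPM in the CHD4-APR libraries, and the groups overlapped. Its log2 fold change was -0.030 with a standard error of 0.045 (edgeR FDR 0.641). E2f4, on chromosome 8 from 105297663 to 105305370, encodes an E2F that acts with pocket proteins to repress genes in resting cells. It had 54.4, 53.0 and 55.4 CPM in the CTRL libraries against 53.2, 56.6 and 53.8 CPM in the CHD4-APR libraries, which overlapped. Its log2 fold change was 0.0081 with a standard error of 0.050 (edgeR FDR 0.918), and 0.15 (FDR 0.0193 by edgeR) after the length and GC correction.

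**Figure D2:**
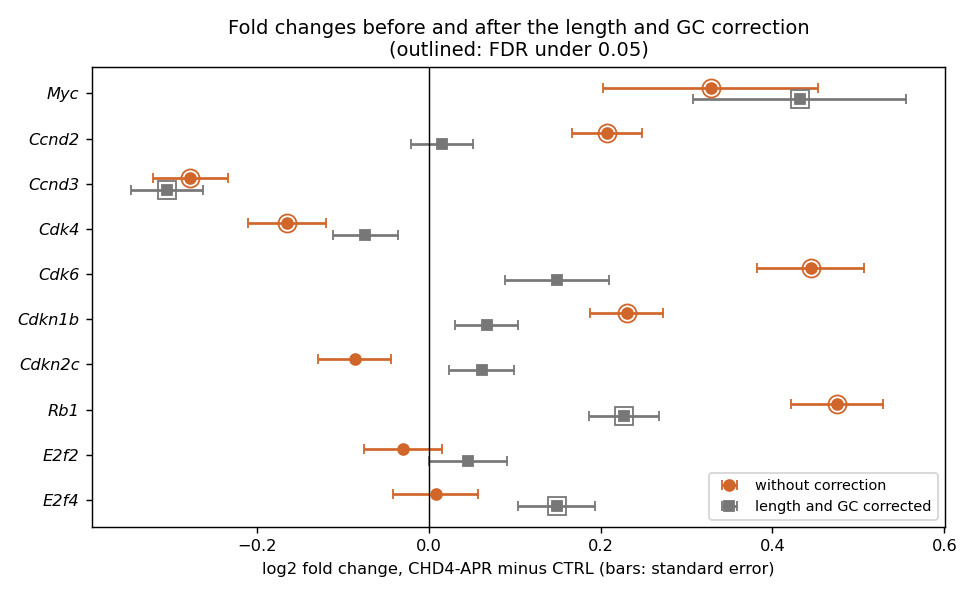
Log2 fold change of each gene (CHD4-APR minus CTRL, bars show the standard error) without correction (circles) and with exonic length and GC content corrected for (squares), outlined where the FDR was under 0.05. Ccnd3 and Rb1 stay outlined on the same side, at -0.28 and -0.30 and at 0.47 and 0.23, as does Myc, while Ccnd2, Cdk4, Cdk6 and Cdkn1b lose their outline and E2f4 gains one.

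The median GC content was lower for the genes that were higher than for the others. The 5 genes that were higher had a median GC content of 45.1% in their longest transcript, between 41.2% for Rb1 and 53.3% for Myc, and a median exonic length of 6015 bases. The 2 that were lower had 53.3% and 56.7% and lengths of 3249 and 8775 bases, and the 3 that did not pass had 56.1% to 58.0% and lengths of 2452 to 4882 bases. Over all genes tested the medians were 49.6% and 3688 bases.

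Some members share exons with genes on the other strand, and the library kit does not mark strand. Cdk4 shares 641 exonic bases with Tspan31, which had 2158 to 2522 counts, at most 35.5% of the Cdk4 counts of the same library, and a log2 fold change of -0.078 (FDR 0.276 by edgeR). Ccnd3 shares 361 bases with Bysl, which had at most 4.17% of its counts and was also lower, with a log2 fold change of -0.19 (FDR 0.0144 by edgeR). Rb1 shares 488 bases with Rcbtb2 and 408 bases with Lpar6, at most 3.04% and 0.286% of its counts. For Ccnd2 and Cdk6 the antisense genes with shared exons held at most 0.296% of their counts, and for the other 5 genes the annotation gave no overlapping gene.

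Levels were compared between genes as CPM per kb of exonic length, which is the union over all annotated transcripts and so understates genes with long transcripts that are little used. In the CTRL libraries Ccnd3 was the highest at 145 ± 2.28 CPM per kb (SD, n = 3), ahead of E2f2 at 132 ± 3.58 (SD, n = 3). Cdkn2c, Cdk4 and Cdkn1b followed at 60.8, 50.6 and 40.1 CPM per kb, then Ccnd2 and E2f4 at 23.0 and 22.1, whose ranges of mean ± SD overlapped. Rb1 was at 13.3 CPM per kb, and Cdk6 and Myc were the lowest, at 1.58 ± 0.0692 and 1.38 ± 0.101 (SD, n = 3). In the CHD4-APR libraries E2f2 and Ccnd3 were at 129 ± 6.08 and 119.9 ± 5.10 CPM per kb (SD, n = 3), and these ranges of mean ± SD overlapped. So did those of Cdkn1b at 47.1 and Cdk4 at 45.1. The ranges of Ccnd2 and E2f4 no longer overlapped there, at 26.5 and 22.2 CPM per kb, and the lowest levels were again those of Cdk6 and Myc.

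Ratios within a library do not depend on how libraries are scaled. There were 3.02 ± 0.164% (SD, n = 3) of the summed level of Cdk4 and Cdk6 from Cdk6 in CTRL and 4.54 ± 0.244% (SD, n = 3) in CHD4-APR libraries. The level of Ccnd3 was 6.32 ± 0.173 times that of Ccnd2 (SD, n = 3) with the CTRL peptide and 4.52 ± 0.229 times (SD, n = 3) with the CHD4-APR peptide. On the log2 scale the ratio of Ccnd3 to Ccnd2 was 2.69, 2.67 and 2.62 in the CTRL libraries against 2.10, 2.18 and 2.24 in the CHD4-APR libraries, a difference of -0.49. Per library the log2 ratio of Cdk6 to Cdk4 was -5.04, -5.06 and -4.91 with the CTRL peptide and -4.43, -4.31 and -4.46 with the CHD4-APR peptide, a difference of 0.61. For Cdkn1b to Cdkn2c the values were -0.63, -0.56 and -0.60 in CTRL and -0.22, -0.31 and -0.32 in CHD4-APR libraries, a difference of 0.32. In these 3 ratios the groups did not overlap, and each had p = 0.1 by exact permutation (two-sided), below which 3 libraries against 3 cannot go (0.133 after Benjamini-Hochberg adjustment over the 4 ratios). The log2 ratio of E2f4 to E2f2 was -2.58 ± 0.0574 in CTRL and -2.54 ± 0.0620 in CHD4-APR libraries (SD, n = 3), a difference of 0.038 within the spread (p = 0.5 in the same exact permutation test). After the length and GC correction the first 3 differences were -0.32, 0.22 and 0.0059, the last of them close to 0.

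**Figure D3:**
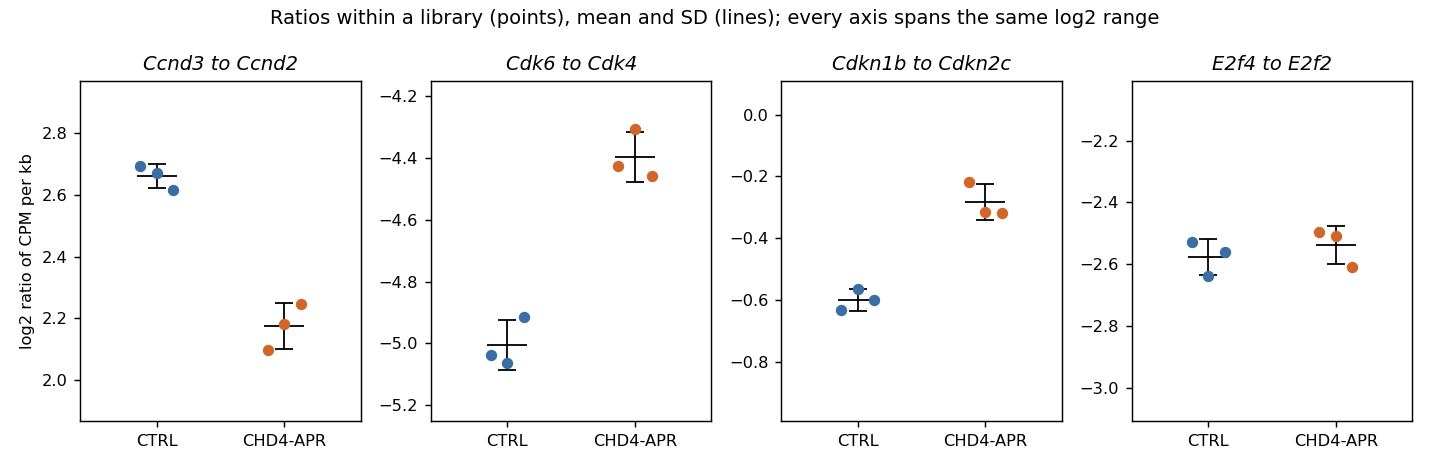
Log2 ratio of CPM per kb of 4 pairs of genes in each library (points), with mean and SD (lines). The CHD4-APR libraries lie below the CTRL libraries for Ccnd3 to Ccnd2 and above them for Cdk6 to Cdk4 and Cdkn1b to Cdkn2c. For E2f4 to E2f2 the groups overlap.

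The families these genes belong to were then set out by share, again per kb and without the length and GC correction. Ccnd3 made up 86.3 ± 0.325% of the D cyclin level in CTRL and 81.9 ± 0.755% in CHD4-APR libraries (SD, n = 3), and Ccnd1 had 2 or 3 counts per library. The summed D cyclin level was 168 ± 2.17 CPM per kb in CTRL and 146 ± 4.96 in CHD4-APR libraries (SD, n = 3), and these ranges did not overlap. Rb1 held 51.0 ± 1.32% and 52.5 ± 1.15% of the pocket protein level (SD, n = 3), while Rbl2 held 24.2 ± 0.754% and 20.7 ± 1.26% (SD, n = 3). Rbl2 itself was higher, with a log2 fold change of 0.21 (FDR 0.0103 by edgeR). After the length and GC correction that of Rbl2 was 0.054 (FDR 0.458 by edgeR). The summed pocket protein level was 23.5, 28.6 and 26.4 CPM per kb in the CTRL libraries against 34.8, 35.4 and 35.7 in the CHD4-APR libraries. E2f2 held 70.9 ± 0.125% of the E2F level in CTRL and 69.5 ± 0.452% in CHD4-APR libraries (SD, n = 3), and E2f4 11.9 ± 0.464% and 12.0 ± 0.478% (SD, n = 3). Among the CDK inhibitors Cdkn1a had the largest share, 42.6 ± 1.21% and 39.3 ± 0.345% (SD, n = 3), and Cdkn1b held 17.1 ± 0.830% and 21.5 ± 0.293% (SD, n = 3). The share of Cdkn2c was 26.0 ± 0.813% and 26.2 ± 0.938% (SD, n = 3). The summed inhibitor level was 234 ± 6.29 CPM per kb in CTRL and 219 ± 3.45 in CHD4-APR libraries (SD, n = 3), without overlap. Cdkn1c had no count in any library, which allows at most 3 counts per library or 0.0607 to 0.0724 CPM, where only counting error is covered.

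**Figure D4:**
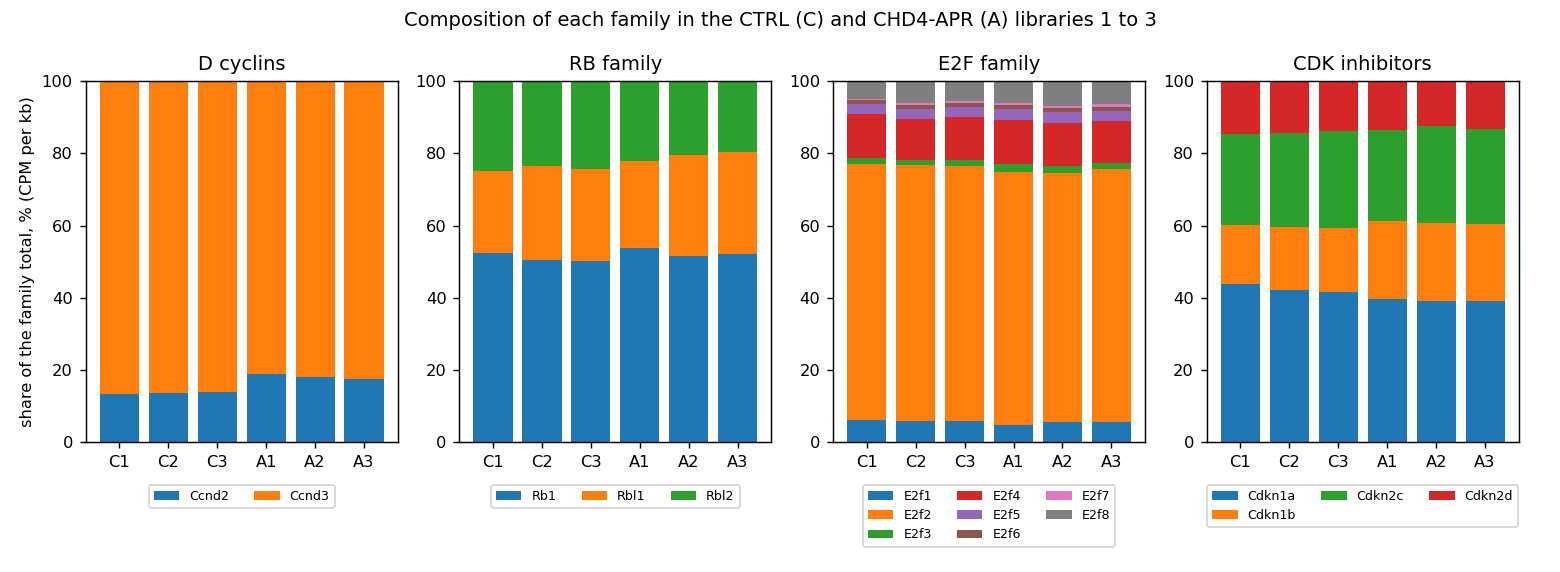
Share of each gene in the summed CPM per kb of its family in CTRL libraries 1 to 3 (C1 to C3) and CHD4-APR libraries 1 to 3 (A1 to A3), without genes under 0.5% in both groups. The shares are without the length and GC correction. In the means of CTRL and CHD4-APR libraries Ccnd2 is 13.7% and 18.1% of the D cyclins, Cdkn1b 17.1% and 21.5% of the inhibitors and E2f2 70.9% and 69.5% of the E2F level.

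The other genes of the network were read from lists by counts and medians, to be set against 20.4% of all genes higher and 17.8% lower, or 28.1% in either direction after the length and GC correction. Of 10 further RB, E2F and partner genes all 10 were tested, 7 were higher, 0 were lower and 3 did not pass, with a median log2 fold change of 0.22. Rbl1, which encodes the pocket protein p107, had 31.9, 45.0 and 40.4 CPM in the CTRL libraries against 50.5, 59.5 and 60.6 CPM in the CHD4-APR libraries, a log2 fold change of 0.54 with a standard error of 0.095 (edgeR FDR 3.41e-04). E2f3, an activating E2F, and Tfdp2, an E2F partner, were higher by 0.40 and 0.27. After the length and GC correction the median was 0.12 and 3 of the list were higher, Rbl1 at 0.31, E2f3 at 0.36 and the partner gene Tfdp1 at 0.22, while Tfdp2 was at -0.013.

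Of 17 other cyclins, CDKs and inhibitors of G1 and the G1/S step, 13 were tested, of which 5 were higher, 4 were lower and 4 did not pass, with a median of 0.061. After the length and GC correction the median was -0.071, with 2 higher and 2 lower. Ccne2, which encodes a cyclin partner of CDK2, had 1.75, 2.73 and 2.87 CPM in the CTRL libraries against 4.27, 4.31 and 4.19 CPM in the CHD4-APR libraries, a log2 fold change of 0.79 with a standard error of 0.16 (edgeR FDR 9.79e-04). Ccne1, the other cyclin E gene and the more abundant one, had 101 ± 5.45 and 89.7 ± 8.45 CPM (SD, n = 3) and was lower, with a log2 fold change of -0.17 (FDR 0.0384 by edgeR) and groups that overlapped. Cdk2, the kinase of both, had 42.5 ± 3.48 and 54.0 ± 2.29 CPM (SD, n = 3), a log2 fold change of 0.34, and Fbxw7, of the ligase that targets cyclin E, was higher by 0.13. The inhibitor genes Cdkn2d and Cdkn1a and the CDK subunit gene Cks1b were lower, with log2 fold changes of -0.23, -0.21 and -0.16. Cdkn1a, which encodes p21, had 355 ± 19.3 CPM in CTRL and 306 ± 7.37 CPM in CHD4-APR libraries (SD, n = 3). Ccne2, Cdk2 and Cdkn1a still passed after the length and GC correction, at 0.54, 0.27 and -0.12, and Ccne1, Fbxw7, Cdkn2d and Cks1b did not. Mnat1, of the CDK-activating kinase, passed as lower only with the correction, at -0.35. The other 4 genes of the list, Ccnd1, Cdkn1c, Cdkn2a and Cdkn2b, had at most 3 counts in a library.

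The 7 genes of MuvB and DREAM, complexes that hold cell cycle genes silent in G1 or activate them later, went both ways, with 3 higher, 2 lower and a median of 0.084. Lin54, the DNA-binding subunit, had 26.1 ± 2.17 and 38.5 ± 1.88 CPM (SD, n = 3), a log2 fold change of 0.56 with a standard error of 0.067 (edgeR FDR 1.15e-05). Lin9 and Rbbp4 were higher by 0.43 and 0.19, and Lin37 and Mybl2 had log2 fold changes of -0.27 and -0.17. After the length and GC correction Lin54 alone of these passed, at 0.33, and the list median was -0.031.

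Of 13 partners and antagonists of MYC, 10 were tested, of which 2 were higher, 1 was lower and 7 did not pass, with a median of -0.036. Mga, which encodes a MAX partner that opposes MYC, had 26.4, 31.9 and 31.5 CPM in the CTRL libraries against 48.3, 50.1 and 47.1 CPM in the CHD4-APR libraries, a log2 fold change of 0.69 with a standard error of 0.068 (edgeR FDR 1.99e-06). Mlxip, a partner of MLX, was higher by 0.27, and Max, the shared partner, had a log2 fold change of -0.13. All 3 passed after the length and GC correction, at 0.32, 0.21 and -0.11. Of the MAD family genes on the list, Mxd1, Mxi1, Mxd3 and Mxd4, none passed, with log2 fold changes from -0.19 to 0.021, and Mxd4 passed as lower after the correction, at -0.18.

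Targets of these factors were read the same way. Of 18 E2F target genes of DNA synthesis, 3 were higher, 0 were lower and 15 did not pass, with a median of 0.0028. The 3 were Mcm4, a helicase subunit, Pola1, of DNA polymerase alpha, and Rrm1, of ribonucleotide reductase, with log2 fold changes of 0.39, 0.38 and 0.21. Only in Pola1 were the libraries of the groups apart, at 23.0 to 28.6 CPM and 31.1 to 36.5 CPM, and only Mcm4 of the 3 passed after the length and GC correction, at 0.31, where Tyms, of thymidylate synthesis, passed as lower at -0.22. Of 15 MYC target genes of ribosome synthesis and growth, 0 were higher, 3 were lower and 12 did not pass, with a median of -0.032. These 3 were the nucleolar genes Nop56, Bop1 and Fbl, at -0.29, -0.18 and -0.16, of which Nop56 still passed after the correction, at -0.27, together with Ncl and Nop58 at -0.35 and -0.39. Of 13 proliferation and quiescence markers, 12 were tested, with 3 higher, 1 lower and a median of 0.041. After the length and GC correction the median was -0.051, with 1 higher and 2 lower. Ccng2 and Foxo3, genes of resting cells, were higher by 0.25 and 0.17, and so was the spindle checkpoint gene Bub1, by 0.20, while the mitotic kinase gene Plk1 had a log2 fold change of -0.25. The antiproliferative genes Btg1 and Btg2 did not pass, at 0.065 and 0.035. With that correction Foxo3 passed, at 0.13, and Ccng2, Bub1 and Plk1 did not, at 0.047, -0.0041 and -0.11, while Top2a, a topoisomerase gene of dividing cells, passed as lower, at -0.17. Mki67, the common marker of cycling cells, was at 1142 ± 52.5 and 1157 ± 57.5 CPM (SD, n = 3), a difference within the spread (FDR 0.796 by edgeR), and was lower after the correction, by a log2 fold change of -0.20 (FDR 0.00255 by edgeR).

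**Figure D5:**
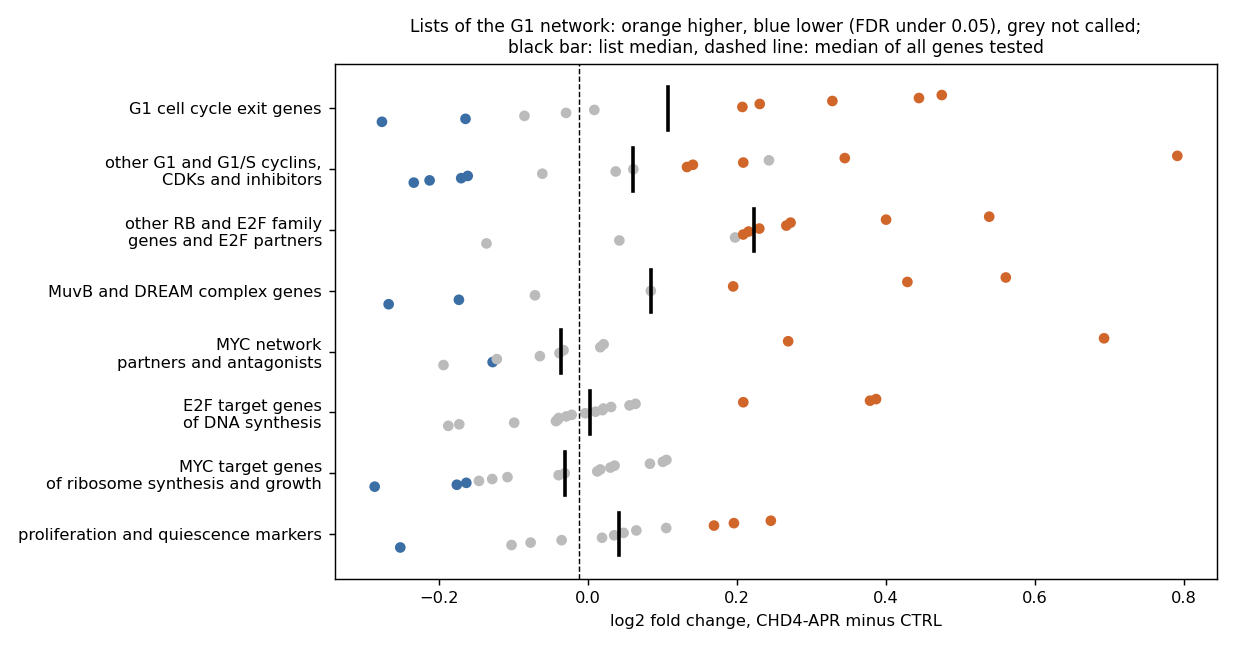
Log2 fold change (CHD4-APR minus CTRL) of each tested gene of the G1 cell cycle exit genes and 7 companion lists, in orange where higher and blue where lower with an FDR under 0.05. Without the length and GC correction, the list medians (black bars) lie between -0.036 and 0.22, and that of all genes tested (dashed line) is -0.012.

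The genes whose pattern over the 6 libraries was most like that of each member were found by Euclidean distance of log2 CPM, centred over the libraries. Nearest to Rb1 was Ranbp6 at a distance of 0.0502, followed by Stam and Tmx1, and nearest to Cdk6 was Hivep1 at 0.0522, followed by Bag4 and Shoc2. For Ccnd2 the nearest genes were Map3k20, Stat5b and Elk4, at 0.0328 to 0.0350, and for Ccnd3 they were Prkrip1, Rnaseh2a and Ppp1r11, at 0.0350 to 0.0371. Cdkn1b was nearest to Heatr5b at 0.0126, Cdk4 to Nsa2 at 0.0225, Cdkn2c to Wdr1 at 0.0282, E2f2 to Mcm7 at 0.0288 and E2f4 to Grpel2 at 0.0234. Myc had the most distant nearest gene, Ulk2, at 0.148. No member was among the 3 nearest genes of another, which says little about shared variation, as 12722 genes were tested.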

How the data were processed

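Polyadenylated RNA of 6 G1E-ER4 libraries was sequenced with a TruSeq kit that does not mark strand. By the submitters' processing notes and the methods, the authors used Cutadapt for adaptors, STAR 2.7.10a for alignment to GRCm38 and featureCounts for counting. The deposited values are raw counts per Ensembl gene. The strand setting of the counting and its treatment of multimapping reads are not given in the sources used here. The table has 2 more columns, named for no sample given here, which were left out.

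Names, places, exonic lengths (union of exons) and GC content (longest transcript) came from GENCODE M21, which held 48349 of 48709 identifiers. Promoters came from RefSeq on GRCm38.p6. In R 4.3.3, low genes were removed by filterByExpr of edgeR 4.0.16, library sizes were adjusted by TMM, and CHD4-APR was set against CTRL by its quasi-likelihood F-test without a block, with Benjamini-Hochberg adjustment over all genes and a threshold of 0.05. Each standard error is the fold change divided by the root of its F statistic. CPM are normalized by TMM. For the length and GC correction, smooth trends of each library's log2 CPM (prior count 2) on both measures were passed to edgeR as offsets, with mgcv 1.9.3. DESeq2 1.42.0, limma 3.58.1 voom, other scalings and filters, removal of hemoglobin genes, a replicate block, other thresholds and leaving out each library were alternatives. The procedures were tested on simulated counts.

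The named genes are the 10 members, from each companion list up to 3 genes per direction with the largest changes among those with an FDR under 0.05 and no overlap between groups, and the 3 genes nearest to each member. Ccne1, Mnat1, Rbl2, Tfdp1, Mcm4, Rrm1, Tyms, Ncl, Nop58, Bub1, Btg1, Btg2, Top2a, Mki67, the MAD family genes, the genes not tested, the markers and the genes sharing exons fall outside this rule and were named after their values were seen. The members and lists were chosen with earlier results of these data known. Libraries of 1 group were not copies of each other (chi-square of 4.64 to 15.7 per degree of freedom for each pair), so p-values measure the spread between these libraries. Intervals and limits cover counting error only.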

Additional observations from a re-analysis of the deposited data

How the results depend on the processing

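Of the 10 G1 cell cycle exit genes 7 passed. The number was 4 after the length and GC correction, 0 at an FDR under 0.05 with at least 1.5-fold (538 of all genes), and 5 to 7 in the fits that each lack 1 library, the fewest without CHD4-APR replicate 2. With the remaining settings it was 5 to 7. For all genes the number was 3703 to 4928 in those fits and 3250 to 5214 with the other settings, apart from that fold limit. Ccnd3 and Rb1 passed in all 16 alternatives run on each, and Myc, Ccnd2, Cdk4, Cdk6 and Cdkn1b kept their direction but lost the call in 7, 2, 3, 1 and 2 of them. The calls of Ccnd2, Cdk4, Cdk6 and Cdkn1b were lost where the trend with length and GC content was removed, except that Cdk6 passed with the block added; the cause was not tested.

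Among the 10 genes, directions turned in these alternatives only for the 3 that did not pass. Of the companion genes that passed, Tfdp2, Rrm1, Rbbp4, Fbxw7 and Bub1 turned after the length and GC correction, from 0.27, 0.21, 0.19, 0.13 and 0.20 to -0.013, -0.098, -0.031, -0.019 and -0.0041. Cdkn2c was at 0.062 after the length and GC correction, with and without a replicate block. E2f2 was at 0.046 under the same corrections and from -0.052 to 0.012 in the fits that lack 1 library, where it was above 0 without CHD4-APR replicate 1. E2f4 was at -0.0091 with upper quartile scaling and from -0.017 to 0.030 in the fits that lack 1 library. It was below 0 when CTRL replicate 2 (-0.010) or CHD4-APR replicate 2 was left out. The cause was not tested.

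After the length and GC correction the difference in log2 ratio was -0.32 for Ccnd3 to Ccnd2, 0.22 for Cdk6 to Cdk4, 0.0059 for Cdkn1b to Cdkn2c and 0.10 for E2f4 to E2f2. With each library left out these ran from -0.52 to -0.45, from 0.56 to 0.65, from 0.28 to 0.33 and from 0.0065 to 0.074.

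Across genes, the deviations of same-numbered libraries from their group means correlated at 0.070, 0.055 and -0.035 for replicates 1, 2 and 3. Pairs with different numbers correlated at -0.081 to 0.034, so replicates 1 and 2 correlated best with their own number. CTRL replicate 3 and CHD4-APR replicate 3 did not correlate best with each other. Whether the numbers mark a pairing was not tested. With a replicate block 7 of the 10 genes and 5214 genes in all passed, and with the block and the length and GC correction 5 and 4082, where Cdk6 passed besides Myc, Ccnd3, Rb1 and E2f4. Myc had the fewest counts of the 10 genes, 145 to 250 per library.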
